A study of Homo sapiens with 6 samples.

Results

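The transcripts of 9 transcription factors of the epithelial-mesenchymal transition (EMT) were followed in 12Z cells, an established human endometriotic epithelial line. They were the EMT-driving factors SNAI1, SNAI2, ZEB1, ZEB2, TWIST1 and TWIST2 and the epithelium-keeping factors GRHL2, OVOL1 and ELF3, taken by symbol from the 16279 genes of the deposited tables. All 9 were present, and 7 of them had enough counts to be tested among 13311 genes. The question was how these factors stood in untreated cells and after chemerin. The NC group (Non-treatment, n = 3) and the rhChemerin group (n = 3) were the same line. The latter had received 10 ng/mL recombinant human chemerin protein ending at Ser157 (rhChem157S in the study) for 48 h. The libraries are labelled as biological replicates of 1 line, without further detail of the cultures, so that p-values measure the spread between these libraries.

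EMT is the programme by which cells lose the junctions and polarity of an epithelium and take on a motile, mesenchymal form. The SNAI and ZEB zinc-finger proteins repress epithelial genes by binding E-boxes, short DNA motifs, in their promoters. The TWIST proteins are basic helix-loop-helix factors that bind E-boxes as dimers with E proteins. GRHL2, OVOL1 and ELF3 keep the epithelial programme on, and GRHL2 and the OVOL proteins are known to repress ZEB1. In the endometrium, EMT and its reverse accompany tissue remodelling, decidualization and embryo attachment, and EMT has been studied in endometriotic lesions.

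Each library held 35430881 to 38341643 counts. Expression is given as FPKM, the fragment count scaled for the length of the gene and the size of the library, which allows levels of different genes to be compared per length. Fold changes come from the counts by edgeR's quasi-likelihood test after TMM scaling, with Benjamini-Hochberg adjustment over all tested genes. "Called" means an adjusted p under 0.05. Of all tested genes, 0.0301% were called, which is 4 genes, whereas DESeq2 called 9.05% of 14382 genes (3.75% higher and 5.3% lower). Without adjustment, 22.8% of genes had p under 0.05 (11.4% higher and 11.4% lower), and the groups did not overlap in 32.5% of genes. As FPKM are scaled by the total alone and the fold changes by TMM, scaling by the total alone moved the median over all tested genes from 0.01 to -0.12 on the log2 scale.

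The labelled cell type was checked against its markers. Of the keratins of simple epithelium, 3 were abundant (KRT8 748 to 966 FPKM, KRT18 555 to 640 and KRT19 277 to 374) and KRT7 was low (1.19 to 2.01 FPKM). The mucin MUC1 stood at 6.79 to 14.4 FPKM and CLDN4 at 0.354 to 1.31 FPKM. In contrast, the junction and surface markers CDH1, EPCAM and CLDN3 were under 1 FPKM in every library. All 8 stromal markers were at 1 FPKM or more in every library, with sums of 1254 to 1482 FPKM in the NC group and 909 to 1567 in the rhChemerin group. The corresponding sums of the 9 epithelial markers were 1597 to 1868 and 1761 to 1977. Of 5 endothelial markers none reached 1 FPKM in all libraries, and PTPRC, the pan-leukocyte marker, stayed under 1 FPKM in all of them. Among the myeloid genes, CD68 ran from 70.04 to 134 FPKM and overlapped between the groups. CD14 stood at 36.9 to 51.5 FPKM in NC and 6.64 to 21.2 FPKM in rhChemerin (log2 fold change -1.49 ± 0.35, SE, edgeR adjusted p = 0.10, DESeq2 adjusted p = 4.32e-04). The endothelial gene VWF stood at 0.352 to 0.508 FPKM in NC and 0.0394 to 0.189 FPKM in rhChemerin (-1.97 ± 0.52, edgeR adjusted p = 0.117, DESeq2 adjusted p = 0.00489). Neither CD14 nor VWF overlapped between the groups. Thus the RNA carried epithelial keratins together with stromal genes, and bulk RNA cannot tell apart fewer cells of a type from less RNA per cell. rhChemerin replicate 3 was the library least like the others of its group. Its mean correlation of log2 CPM across genes with them was 0.968 (0.972 and 0.980 for replicates 1 and 2). It also had the lowest TMM factor (0.898). The estimates of the tested members are therefore given with all libraries and with single libraries left out.

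To show the letters that the SNAI and ZEB factors are known to bind, the 250 bases before each gene start in the RefSeq promoter table (GRCh38.p14) were searched for CAGGTG and its reverse complement CACCTG, which covers both strands without overlap between the motifs. At least 1 match lay in 17.5% of all 35116 windows, or in 20.6% of 27305 genes. Among the members, 4 had a window (ZEB1, ZEB2, TWIST2 and ELF3). ZEB1 held matches before 2 of its 7 starts, ELF3 held 1 match, and ZEB2 and TWIST2 held none in this window. Of the 24 epithelial target genes listed for this pathway, 14 had a window and 11 of these (78.6%) held a match. Of the 24 mesenchymal target genes, 12 had a window and 2 (16.7%) held a match. The epithelial list was drawn up with genes known as direct targets of these repressors in mind, so that its share is a description and not independent evidence. The matches of the members are given here, with those of 3 other described genes that were lower in rhChemerin (OCLN, SPINT1 and GRHL3) and 3 that were higher (AXL, LOX and SUV39H1), as 30 bases each, in the gene's own direction, with the motif in capitals, so that the letters can be set beside the expression of each gene.
ELF3 (chr1:202010455-202010484, + strand, motif ending 114 bases before the start): gaatatgcaaatCACCTGgggccaggagcc
ZEB1 (chr10:31318348-31318377, + strand, 51 bases before): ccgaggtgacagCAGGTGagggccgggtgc
ZEB1 (chr10:31318966-31318995, + strand, 236 bases before): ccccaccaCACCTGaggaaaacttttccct
ZEB1 (chr10:31319119-31319148, + strand, 79 bases before): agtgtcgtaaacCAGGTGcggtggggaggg
OCLN (chr5:69492502-69492531, + strand, 27 bases before): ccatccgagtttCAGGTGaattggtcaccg
OCLN (chr5:69492645-69492674, + strand, 127 bases before): tctaggacgcagCAGGTGggactcgcggcg
SPINT1 (chr15:40844439-40844468, + strand, 20 bases before): tcccgggctgatCAGGTGtgtctcctcctc
GRHL3 (chr1:24319324-24319353, + strand, 15 bases before): agttaacagctgCACCTGttgaggtatacc
AXL (chr19:41219105-41219134, + strand, 100 bases before): cccctgattgtcCAGGTGgcccctgggctc
LOX (chr5:122077303-122077332, - strand, 91 bases before the nearer start): gaagcacccgtgCACCTGgtccccagctat
SUV39H1 (chrX:48695474-48695503, + strand, 62 bases before): gtaaaggagggcCACCTGgggaaacttcag
Matches also lie before starts of MUC1, CDS1, DSP, CLDN7, JUP, AP1M2, CD24, S100A4 and TGFBR1. All of these had lower estimates, and most are from the epithelial list. RAB25 and CRB3 hold matches too but were not tested for expression. The printed lower and higher genes were picked by direction, so that finding both directions among them was fixed beforehand. A match is a sequence of letters and was not tested for binding in these cells.

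The 6 drivers were all expressed in untreated cells, whereas the 3 keepers were at or near the limit of detection. Driver levels ran from 4.82 to 29.5 FPKM over the 6 libraries. ELF3 reached at most 0.125 FPKM, OVOL1 0.0195 FPKM and GRHL2 0.0187 FPKM. In the NC group TWIST2 was the most abundant (20.5 ± 2.03 FPKM, SD, n = 3), followed by TWIST1 (13.1 ± 0.262). The ranges of these genes did not overlap with each other or with the next. ZEB2 (9.02 ± 0.495), SNAI2 (8.04 ± 3.26), ZEB1 (7.14 ± 0.605) and SNAI1 (6.69 ± 0.915) came next, and each overlapped in range with its neighbour in this order. In the rhChemerin group the order was TWIST2, TWIST1, SNAI2, ZEB2, ZEB1 and SNAI1. There the ranges of TWIST1 and SNAI2 and those of SNAI2 and ZEB2 overlapped, and the other neighbours among the drivers were separate. By rank among all 16279 genes, the drivers lay between the percentiles 51.0 (SNAI1) and 86.4 (TWIST2) in every library, and the keepers between 3.62 and 22.9.

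**Figure D1:**
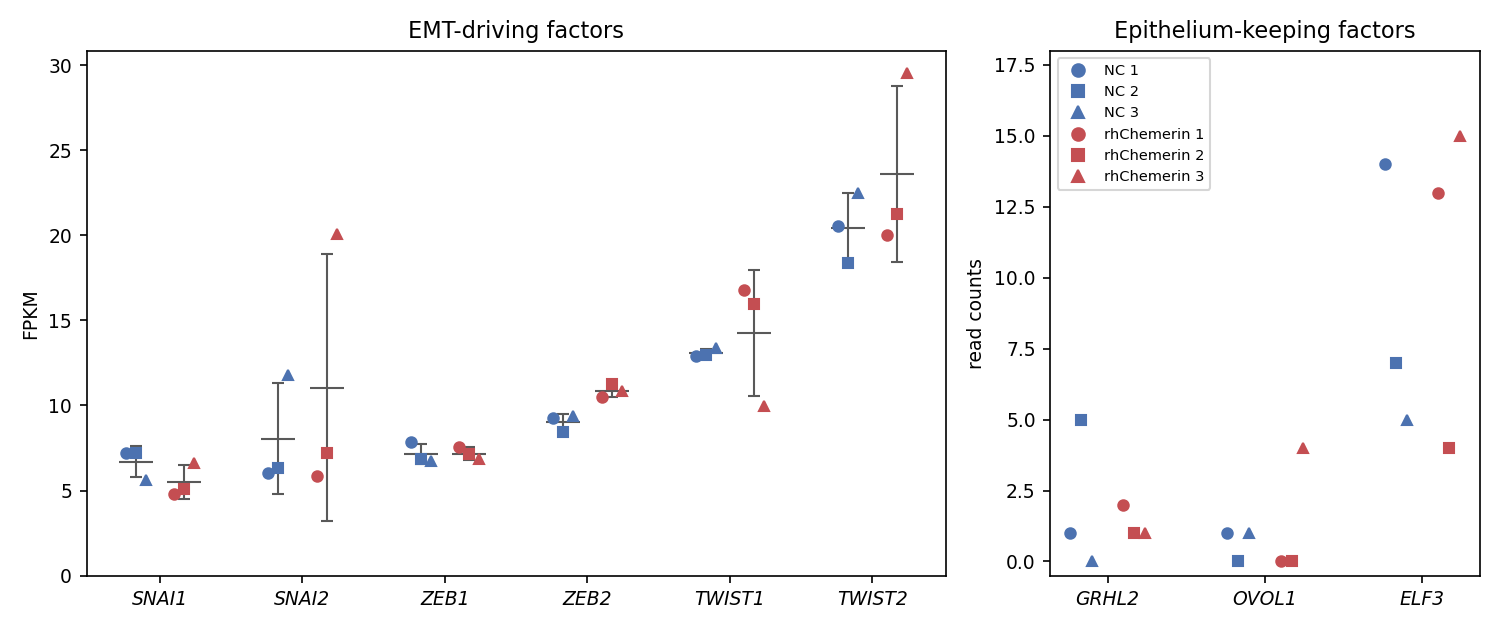
Left, FPKM of the 6 EMT-driving factors in each library, with the mean and SD of 3 libraries per group as bars. Right, read counts of the 3 epithelium-keeping factors in each library. ZEB2 is the member whose groups do not overlap, at 8.45 to 9.36 FPKM in NC and 10.5 to 11.2 in rhChemerin, and the keepers stay at 15 counts or fewer.

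Together the drivers summed to 63.7, 60.2 and 69.4 FPKM in NC replicates 1 to 3 and to 65.6, 67.9 and 83.9 FPKM in rhChemerin replicates 1 to 3. The groups overlapped in this sum. The TWIST pair made up 51.7% to 52.4% of it in the NC group and 56.2%, 54.8% and 47.1% in rhChemerin replicates 1 to 3. The SNAI pair made up 20.8% to 25.1% in the NC group and 16.3%, 18.1% and 31.8% in rhChemerin replicates 1 to 3. Hence the make-up of rhChemerin replicate 3 differed from that of the other treated libraries, with SNAI2 at 23.9% and TWIST1 at 11.9% of the sum.

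**Figure D2:**
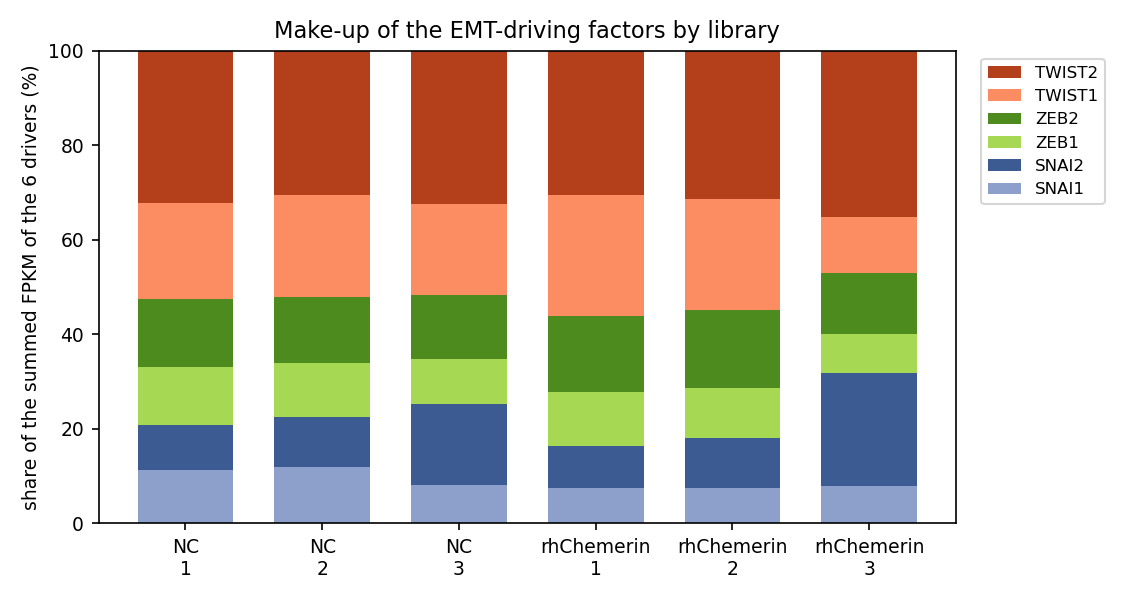
Share of each EMT-driving factor in the summed FPKM of the 6 drivers (%), 1 bar per library. In rhChemerin replicate 3 SNAI2 takes 23.9% and TWIST1 11.9%, against 8.90% to 10.6% and 23.5% to 25.6% in the other 2 rhChemerin libraries.

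With edgeR, 0 of the 7 tested members were called, and 1 of them, ZEB2, had an unadjusted p under 0.05 and groups that did not overlap. DESeq2 called the same 1 member. These counts stand against the 22.8% of all genes with an unadjusted p under 0.05, the 32.5% without overlap and the 9.05% that DESeq2 called, so that 1 of 7 members is a smaller share than the first 2 of these, and a single gene is close to the last. Of the 7 tested members 6 had a higher estimate in the rhChemerin group and 1 a lower one. Their median log2 fold change was 0.35 against 0.01 over all genes. These 7 include the keeper ELF3. Of the 6 drivers alone, 5 were higher and the median was 0.30. Over the other settings with all 6 libraries, the lowest estimates of the 6 higher members ran from 0.00772 (ZEB1) to 0.28 (SNAI2). Without rhChemerin replicate 3, SNAI1 (-0.35), SNAI2 (-0.22) and ELF3 (-0.02) were below 0 and TWIST2 was at 0.10. ELF3 had only 4 to 15 counts per library. The 7 passed a filter on low counts and are not all members.

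ZEB2 encodes a zinc-finger and homeodomain repressor of epithelial genes that also binds SMAD proteins. It lies on the minus strand of chromosome 2 (GRCh38, GENCODE 29, 144364364 to 144524583). ZEB2 stood at 9.24, 8.45 and 9.36 FPKM in NC replicates 1 to 3 and at 10.5, 11.2 and 10.8 FPKM in rhChemerin replicates 1 to 3. Every treated library was above every untreated library. The fold change was 1.32 (95% interval 1.14 to 1.53), or 0.40 ± 0.09 (SE) on the log2 scale. The unadjusted p was 0.00265 and the adjusted p 0.0948 with edgeR's quasi-likelihood test, whereas DESeq2 gave an adjusted p of 0.0112. Over the other settings that used all 6 libraries, the estimate ran from 0.25 (limma on log2(FPKM + 1), adjusted p = 0.144) to 0.40, with 0.27 (edgeR adjusted p = 0.124) when libraries were scaled by their totals. Leaving out any 1 library kept the estimate between 0.35 and 0.45, with edgeR adjusted p-values from 0.0455 (without rhChemerin replicate 1) to 0.377 (without NC replicate 2). With DESeq2 the call was lost without NC replicate 1 (adjusted p = 0.0598), NC replicate 2 (0.182), NC replicate 3 (0.0601) or rhChemerin replicate 2 (0.1002).

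ZEB1, the paralogue of ZEB2 and a direct repressor of E-cadherin, lies on the plus strand of chromosome 10 (31318495 to 31529814). Its level was 7.83, 6.83 and 6.75 FPKM in the NC libraries and 7.56, 7.12 and 6.85 FPKM in the rhChemerin libraries. The groups overlapped over nearly their whole range. The log2 fold change was 0.14 ± 0.09 (SE, 95% interval -0.09 to 0.36, edgeR adjusted p = 0.410), so that a change beyond 1.28-fold upward lies outside the interval. Leaving out any 1 library gave 0.10 to 0.22.

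SNAI1, which encodes the Snail repressor, lies on the plus strand of chromosome 20 (49982999 to 49988886). Its values were 7.22, 7.21 and 5.63 FPKM in the NC libraries and 4.82, 5.09 and 6.65 FPKM in the rhChemerin libraries. Replicate 3 was the lowest library of the NC group and the highest of the rhChemerin group, so that the groups overlapped. The log2 fold change was -0.14 ± 0.21 (SE, 95% interval -0.63 to 0.35, edgeR adjusted p = 0.714), and it was -0.35 (adjusted p = 0.234) without rhChemerin replicate 3.

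SNAI2, which encodes the related repressor Slug, lies on the minus strand of chromosome 8 (48917604 to 48921740). It was the most variable driver, at 6.01, 6.32 and 11.8 FPKM in the NC libraries and 5.84, 7.20 and 20.1 FPKM in the rhChemerin libraries. Replicate 3 was the highest library in each group, and the other 4 libraries lay between 5.84 and 7.20 FPKM. The log2 fold change was 0.63 ± 0.52 (SE, 95% interval -0.60 to 1.85, edgeR adjusted p = 0.489). Without rhChemerin replicate 3 it turned to -0.22 (adjusted p = 0.695), and without NC replicate 3 it was 1.01 (adjusted p = 0.423). The direction of SNAI2 therefore depended on 1 library.

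TWIST1, a basic helix-loop-helix factor of mesoderm and neural crest, lies on the minus strand of chromosome 7 (19020991 to 19117672). Its level was 12.90, 12.95 and 13.38 FPKM in the NC libraries, a spread of only 0.262 FPKM (SD). In the rhChemerin libraries it was 16.8, 15.9 and 9.99 FPKM, so that replicates 1 and 2 were above and replicate 3 below every untreated library. The log2 fold change was 0.24 ± 0.17 (SE, 95% interval -0.15 to 0.63, edgeR adjusted p = 0.406). Without rhChemerin replicate 3 it was 0.41, with an adjusted p of 0.0597 in edgeR and 0.00536 in DESeq2. Leaving out the other libraries gave 0.13 to 0.26.

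TWIST2, its paralogue, also known as Dermo1, lies on the plus strand of chromosome 2 (238848032 to 238910543). It stood at 20.5, 18.4 and 22.5 FPKM in the NC libraries and 20.02, 21.3 and 29.5 FPKM in the rhChemerin libraries. Replicate 3 was the highest library in each group, and the groups overlapped. The log2 fold change was 0.35 ± 0.19 (SE, 95% interval -0.11 to 0.80, edgeR adjusted p = 0.317), and it was 0.10 (adjusted p = 0.620) without rhChemerin replicate 3.

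**Figure D3:**
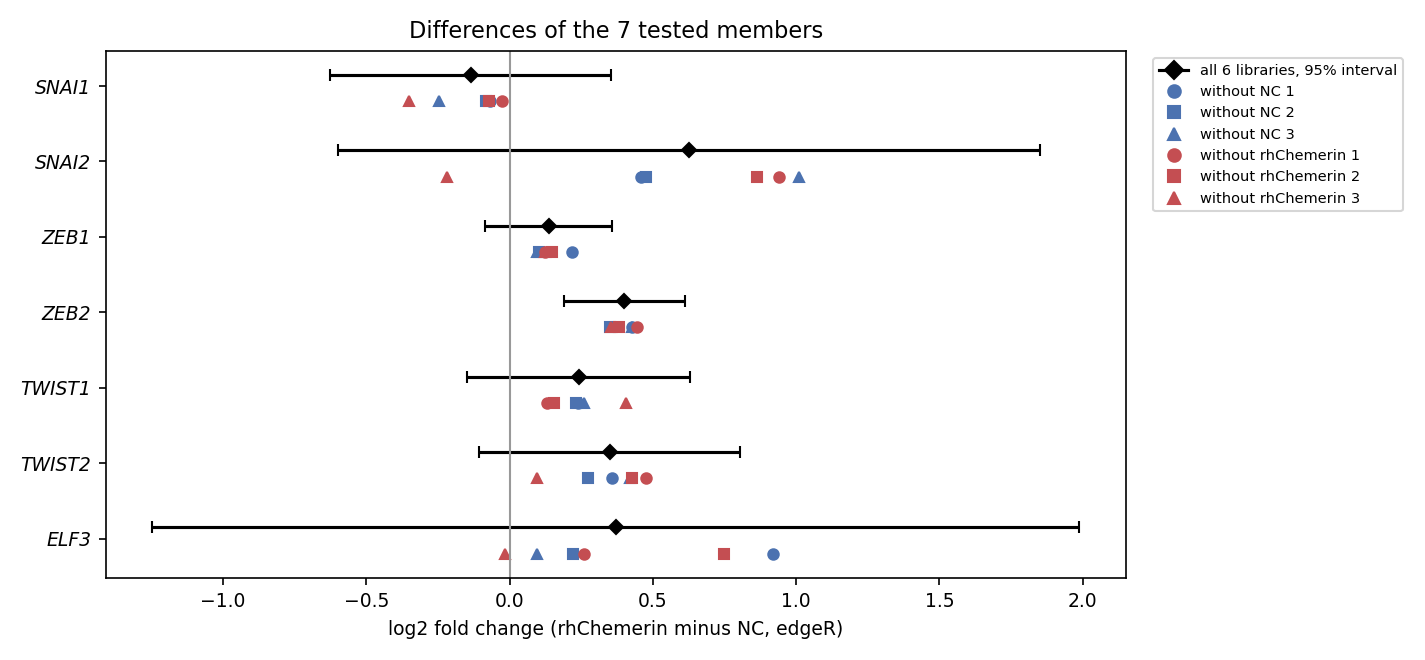
Log2 fold change (rhChemerin minus NC, edgeR) of the 7 tested members. Diamonds and bars give the estimate and 95% interval from all 6 libraries, and the coloured symbols give the estimate with 1 library left out. The interval of ZEB2 (0.19 to 0.61) is the one that lies above 0, and the estimates of SNAI2 and ELF3 cross 0 without rhChemerin replicate 3.

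The epithelium-keeping factors were barely detected. GRHL2, a Grainyhead factor that activates CDH1 and other junction genes, had 1, 5 and 0 counts in the NC libraries and 2, 1 and 1 counts in the rhChemerin libraries. OVOL1, a zinc-finger repressor of mesenchymal genes, had 1, 0 and 1 counts in the NC libraries and 0, 0 and 4 counts in the rhChemerin libraries. Both fell below the filter on low counts and were not tested. Relative to library size, the rhChemerin to NC ratio was 0.644 for GRHL2 (6 counts in NC against 4 in rhChemerin, 95% exact interval 0.134 to 2.72). For OVOL1 it was 1.93 (2 counts against 4, 0.277 to 21.4). These intervals cover counting error only, and no difference was detectable at this depth. A library with no count allows up to 3 counts, which is 0.0847 CPM in the smallest library.

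ELF3, an ETS factor of differentiated epithelia, was the only keeper that passed the filter. It had 14, 7 and 5 counts in the NC libraries and 13, 4 and 15 counts in the rhChemerin libraries, or 0.0433 to 0.123 and 0.0344 to 0.125 FPKM. The groups overlapped fully, and the log2 fold change of 0.37 ± 0.69 (SE, 95% interval -1.25 to 1.99, edgeR adjusted p = 0.767) was -0.02 without rhChemerin replicate 3. The CACCTG match of ELF3 lies 114 bases before its start, as printed with the other windows.

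The counting's strand setting was not given in the sources used here, and exons on the opposite strand could therefore change the counts in either direction. In GENCODE 29, no exon of SNAI1, SNAI2 or TWIST2 shared bases with an opposite-strand gene. ZEB2 shared 1299 of its 25058 exon bases with opposite-strand genes, mainly ZEB2-AS1, ZEB1 shared 366 of 8650, TWIST1 141 of 2033, GRHL2 50 of 6060, OVOL1 1044 of 3849 and ELF3 664 of 7191. None of these partners is named in the deposited tables, and their part in the counts of ZEB2 and of the other members was not tested.

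The transcripts most alike each member over the 6 libraries were sought among genes with a mean count of at least 100, by Pearson correlation of log2 CPM. For ZEB2 these were PPP4C (r = 0.997) and SPATS2L (r = 0.996), for SNAI1 STX6 (0.984) and GTF2H4 (0.980), and for SNAI2 MAP3K11 (0.996) and CCDC137 (0.996). For TWIST1 they were CLBA1 (0.986) and CDCA7 (0.986), for TWIST2 C16orf91 (0.998) and LLPH (0.998), for ZEB1 PLPBP (0.982) and POLR2J (0.981), and for ELF3 SYNE3 (0.986) and NFIX (0.980). With 6 points that share library and treatment, r was over 0.9 for 46 genes (ELF3) to 1137 genes (TWIST2), so that these values only describe the ranking.

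Other EMT-driving factors were mostly higher and the spread was wide. Of the 16 listed, 12 were tested and 9 of these had a higher estimate, with a median log2 fold change of 0.34 against 0.01 over all genes. Without rhChemerin replicate 3 the list median was -0.00397. edgeR called 0 of them, 3 had an unadjusted p under 0.05 upward and 2 downward, and DESeq2 called 2, both higher. TCF4, an E protein that can dimerise with TWIST, stood at 3.36, 3.06 and 2.39 FPKM in NC and 4.47, 3.50 and 4.01 FPKM in rhChemerin. Its groups did not overlap (log2 fold change 0.57 ± 0.15, SE, edgeR adjusted p = 0.119, DESeq2 adjusted p = 0.0231). The E proteins TCF3 and TCF12, named after their values were seen, were more abundant, with NC means of 46.3 and 10.6 FPKM. Both overlapped between the groups, with log2 fold changes of 0.11 ± 0.10 and 0.06 ± 0.09 (SE). HMGA2, an architectural chromatin protein that activates SNAI1 and TWIST1, stood at 1.41, 1.41 and 1.71 FPKM in NC and 1.63, 6.02 and 17.9 FPKM in rhChemerin. Its log2 fold change was 2.68 ± 0.78 (edgeR adjusted p = 0.129, DESeq2 adjusted p = 0.0426), and 1.43 without rhChemerin replicate 3. The rhChemerin libraries thus ranged widely, and replicate 1 lay within the NC range. FOXC2, a forkhead factor, had a log2 fold change of 2.13 ± 0.91 (edgeR adjusted p = 0.219, DESeq2 adjusted p = 0.0880), and 0.38 (edgeR adjusted p = 0.703) without rhChemerin replicate 3. It stood at 1.48 FPKM in that library and at 0.0973 to 0.228 FPKM in the other 5. SNAI3, the third SNAI family gene, was lower at -1.85 ± 0.60 and was listed at no more than 0.453 FPKM. FOXQ1, another forkhead factor, was lower at -0.50 ± 0.20.

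Most other epithelium-keeping factors were too low to be tested. Of the 15 listed, 13 were in the tables and 5 passed the filter on low counts, with a median log2 fold change of -0.25. Unlike the member keepers, KLF5 (7.51 to 10.6 FPKM) was at levels near those of the drivers. KLF4 was below every driver in the NC libraries (2.17 to 4.61 FPKM) and stood at 3.33 to 9.53 FPKM in the rhChemerin libraries. KLF5, a Krüppel-like factor named after its values were seen, had a log2 fold change of 0.20 ± 0.14 (SE, edgeR adjusted p = 0.395). edgeR and DESeq2 called 0 of them, 1 had an unadjusted p under 0.05 upward and 2 downward. KLF4, a Krüppel-like factor of differentiated epithelium, had a log2 fold change of 1.18 ± 0.45 (SE, edgeR adjusted p = 0.186), and 0.68 (adjusted p = 0.299) without rhChemerin replicate 3. The Grainyhead paralogues GRHL1 (-0.98 ± 0.35, adjusted p = 0.168) and GRHL3 (-1.45 ± 0.56, adjusted p = 0.188), whose printed window holds a CACCTG match, were lower. GRHL1 stood at 0.884, 1.29 and 1.11 FPKM in NC and 0.678, 0.585 and 0.270 FPKM in rhChemerin, without overlap.

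**Figure D4:**
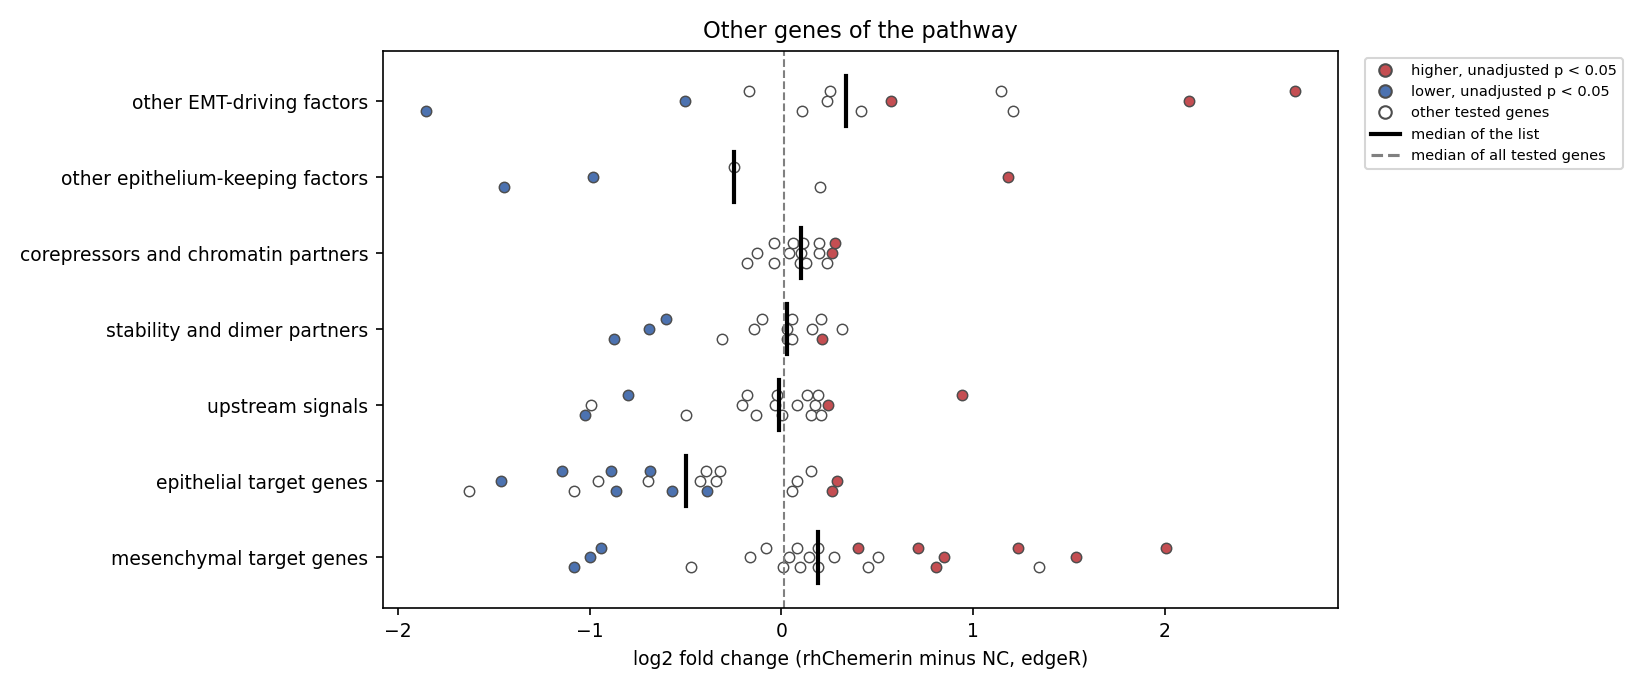
Log2 fold change (rhChemerin minus NC, edgeR) of every tested gene of 7 lists of the EMT pathway, 1 circle per gene. Filled circles have an unadjusted p under 0.05, the short black lines are the list medians and the dashed line is the median of all tested genes (0.01). The epithelial targets lie lowest, at a median of -0.50, and the other EMT-driving factors highest, at 0.34.

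The proteins with which the members work were next described. The 15 corepressors and chromatin partners, such as HDAC1 and EZH2, through which SNAI and ZEB proteins silence genes, were all tested. Their median log2 fold change was 0.10, with 0 called, 2 with an unadjusted p under 0.05 upward and 0 downward. These were SUV39H1, a histone methyltransferase recruited by Snail (0.28 ± 0.08, SE, edgeR adjusted p = 0.129), and SMARCA4, a chromatin remodeller that binds ZEB1 (0.27 ± 0.11, adjusted p = 0.197). When libraries were scaled by their totals, SUV39H1 was at 0.15 and SMARCA4 at 0.13, neither with an unadjusted p under 0.05, and the list median turned to -0.03.

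Of the 14 stability and dimer partners, edgeR called 0, 1 had an unadjusted p under 0.05 upward and 3 downward, and the median log2 fold change was 0.03. The 3 lower genes belonged to the ID family, whose proteins bind E proteins and so compete with TWIST for its dimer partners. ID2 stood at 66.5, 73.2 and 101 FPKM in NC and 44.2, 39.3 and 36.7 FPKM in rhChemerin. It did not overlap between the groups (log2 fold change -0.87 ± 0.16, SE, edgeR adjusted p = 0.0752, DESeq2 adjusted p = 1.13e-04). ID3 stood at 143, 175 and 215 FPKM in NC and 127, 95.7 and 99.8 FPKM in rhChemerin (-0.60 ± 0.16, edgeR adjusted p = 0.117, DESeq2 adjusted p = 0.0170). ID4 was at -0.69 ± 0.24 (edgeR adjusted p = 0.157). The groups of ID3 and ID4 did not overlap either. ID1, a listed gene of the same family named after its values were seen, overlapped between the groups. It was at -0.31 ± 0.18 (SE, edgeR adjusted p = 0.324, DESeq2 adjusted p = 0.328). In this list 6 of 14 genes did not overlap, against 32.5% of all genes. CSNK2A1, a casein kinase 2 subunit, was higher at 0.21 ± 0.08 (adjusted p = 0.186), and at 0.0811 with libraries scaled by their totals.

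Upstream signals, genes of pathways that are known to act on SNAI, ZEB or TWIST, had a median log2 fold change of -0.01 over 18 tested genes. edgeR called 0, and 2 were higher and 2 lower at an unadjusted p under 0.05. TGFB2, a transforming growth factor β ligand, stood at 6.78, 7.89 and 10.7 FPKM in NC and 4.67, 3.87 and 2.94 FPKM in rhChemerin (-1.02 ± 0.20, SE, edgeR adjusted p = 0.0752, DESeq2 adjusted p = 2.13e-04). TGFBR1, its type I receptor, was lower at -0.80 ± 0.26 (edgeR adjusted p = 0.152, DESeq2 adjusted p = 0.0358), and at -0.53 (edgeR adjusted p = 0.0498) without rhChemerin replicate 3. In contrast, AXL, a receptor tyrosine kinase linked to EMT, stood at 76.7, 79.0 and 105 FPKM in NC and 114, 150 and 189 FPKM in rhChemerin (0.94 ± 0.23, edgeR adjusted p = 0.105, DESeq2 adjusted p = 0.00246). None of these 3 genes overlapped between the groups. Among all 18 signals 5 did not overlap, against 32.5% of all genes. CTNNB1, which encodes β-catenin, had a log2 fold change of 0.24 ± 0.08 (edgeR adjusted p = 0.140), and of 0.12 with libraries scaled by their totals. The ligands TGFB1 and TGFB3 and the receptor TGFBR2, named after their values were seen, overlapped between the groups. They were at 0.21 ± 0.22, -0.18 ± 0.23 and 0.17 ± 0.22 (SE). TGFB1 was the most abundant of the listed ligands of this family, with means of 80.9 FPKM in NC and 84.3 in rhChemerin.

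Epithelial target genes, listed as epithelial genes of this pathway, had the lowest list median. Of the 24 listed, 20 were tested, 15 of them with a lower estimate, and the median log2 fold change was -0.50. edgeR called 0, 7 were lower and 2 higher at an unadjusted p under 0.05, and DESeq2 called 4, all lower. CDH1, which encodes E-cadherin, stood at 0.381, 0.238 and 0.311 FPKM in NC and 0.201, 0.0859 and 0.10 FPKM in rhChemerin (-1.14 ± 0.44, SE, edgeR adjusted p = 0.188). EPCAM, an epithelial adhesion molecule, was at -1.46 ± 0.51 (adjusted p = 0.165), from 0.599 ± 0.210 to 0.196 ± 0.0764 FPKM (SD, n = 3). These low genes did not overlap between the groups, and neither did 8 of the 20 tested genes of the list in all, against 32.5% of all genes.

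OCLN, the tight-junction protein occludin with a CAGGTG match before both of its annotated starts, stood at 4.65, 4.86 and 4.13 FPKM in NC and 3.202, 2.59 and 2.02 FPKM in rhChemerin (-0.68 ± 0.15, SE, edgeR adjusted p = 0.0914, DESeq2 adjusted p = 0.00346). LLGL2, a polarity protein, was at -0.89 ± 0.26 (edgeR adjusted p = 0.129, DESeq2 adjusted p = 0.0181), and SPINT1, a serine protease inhibitor with 1 match, at -0.86 ± 0.26 (edgeR adjusted p = 0.135, DESeq2 adjusted p = 0.0253). MUC1, a mucin named after its values were seen as the fourth gene called by DESeq2, was at -0.57 ± 0.17 (DESeq2 adjusted p = 0.0404). The keratins KRT8 (0.29 ± 0.12) and KRT19 (0.27 ± 0.11) were the 2 higher genes. With libraries scaled by their totals they were at 0.16 and 0.14, with unadjusted p-values of 0.178 and 0.258 in edgeR's quasi-likelihood test.

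Mesenchymal target genes were split. All 24 were tested, 18 had a higher estimate, and the median log2 fold change was 0.19. edgeR called 0, 7 were higher and 3 lower at an unadjusted p under 0.05, and DESeq2 called 4 higher and 3 lower. VIM, the intermediate filament vimentin, stood at 881, 827 and 991 FPKM in NC and 1507, 2304 and 3247 FPKM in rhChemerin (1.54 ± 0.30, SE, edgeR adjusted p = 0.0752, DESeq2 adjusted p = 5.04e-06). MMP9, a matrix metalloproteinase, was at 2.00 ± 0.50 (DESeq2 adjusted p = 0.00152), and FAP, a stromal protease, at 0.81 ± 0.20 (DESeq2 adjusted p = 0.00455). LOX, a collagen cross-linking enzyme named after its values were seen as the fourth higher gene of DESeq2, was at 0.85 ± 0.22 (DESeq2 adjusted p = 0.00507). CDH2, which encodes N-cadherin, was at 0.40 ± 0.14 (edgeR adjusted p = 0.165), 0.22 without rhChemerin replicate 3 and 0.26 with libraries scaled by their totals. FN1, fibronectin, was at 0.19 ± 0.14 (adjusted p = 0.412), and 0.29 without rhChemerin replicate 3 and 0.0716 with scaling by totals.

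The lower mesenchymal genes were ACTA2, smooth muscle actin, CDH11, a mesenchymal cadherin, and S100A4, a calcium-binding protein of fibroblasts. ACTA2 stood at 34.7, 42.0 and 34.8 FPKM in NC and 23.5, 16.5 and 11.4 FPKM in rhChemerin (-1.0 ± 0.21, SE, edgeR adjusted p = 0.0880, DESeq2 adjusted p = 6.58e-04). CDH11 was at -0.94 ± 0.22 and S100A4 at -1.08 ± 0.28 (DESeq2 adjusted p = 0.00186 and 0.00834). None of VIM, MMP9, FAP, ACTA2, CDH11 and S100A4 overlapped between the groups. These were named for their small p, and over the list 9 of 24 genes did not overlap, against 32.5% of all genes. Of the 8 stromal markers, beside these values, DESeq2 called PDGFRA (higher, without overlap, at 0.79 ± 0.22, adjusted p = 0.0206), and the other 7 overlapped between the groups, with estimates from -0.60 (PDGFRB) to 0.39 (DCN) and a list median of 0.01. Of the markers of other cell types, CD14 and VWF were lower, with the values given at the start. The part of any of these markers in the list values was not tested.

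**Figure D5:**
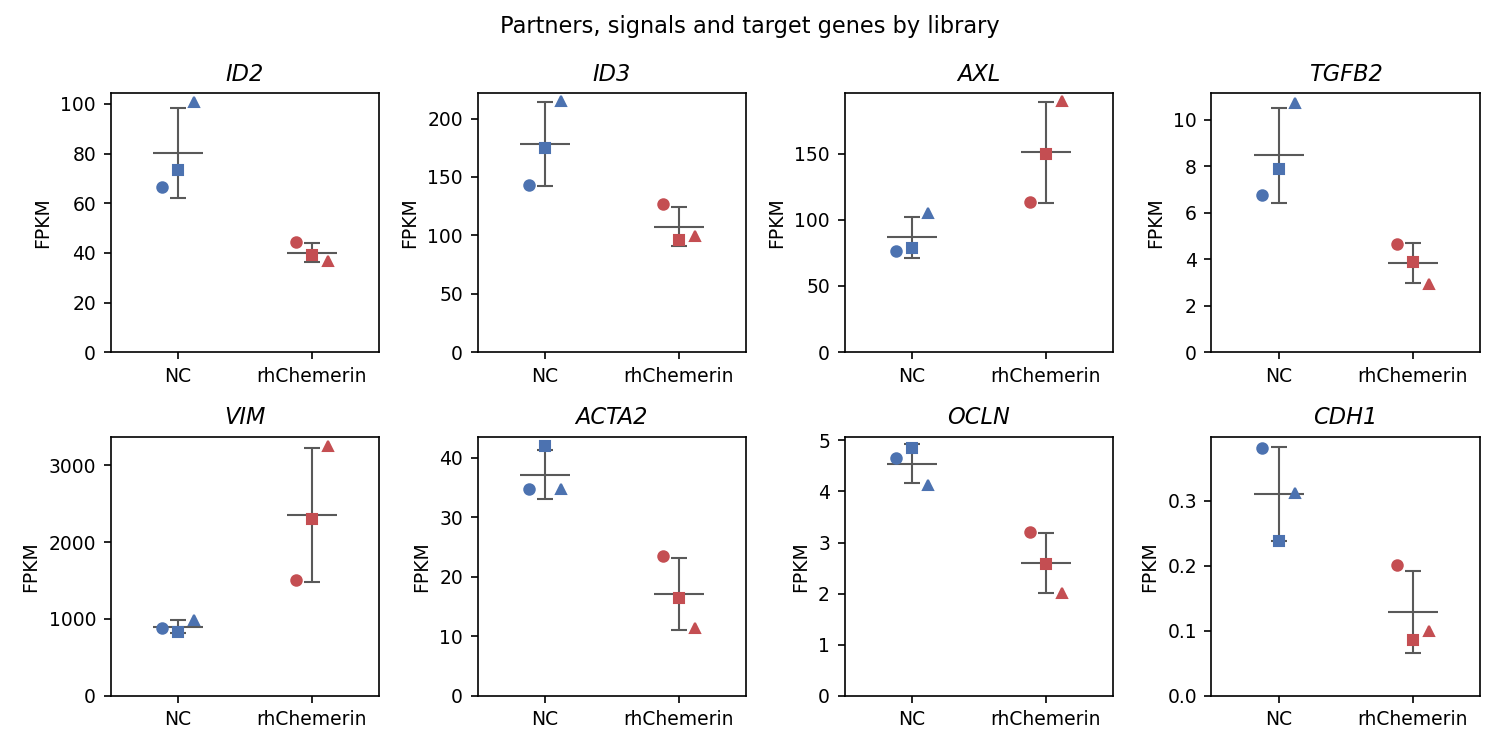
FPKM of 2 ID genes (ID2 and ID3), the signals AXL and TGFB2, the mesenchymal targets VIM and ACTA2 and the epithelial targets OCLN and CDH1 in each library, with the mean and SD of 3 libraries per group as bars. In all 8 panels the groups do not overlap, with AXL and VIM higher and the other 6 genes lower in rhChemerin. Of all tested genes 32.5% did not overlap in TMM-scaled log2 CPM, where these 8 did not overlap either. This only describes the genes chosen for display.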

How the data were processed

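12Z cells were lysed in TRIzol, and libraries were made with the VAHTS Universal V6 kit and sequenced as 150 bp paired-end reads. The authors trimmed reads with fastp, aligned them with HISAT2 to GRCh38.p13 and counted them per gene with HTSeq. The deposited files hold raw read counts per gene and the authors' FPKM for the same genes. The annotation release and strand setting are not given in the sources used here. Dividing counts by 1 length per gene and by the library total gave the deposited FPKM, within 1%, in 89195 of 89195 values above 0.

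Here, counts were tested in R 4.3.3 with edgeR 4.0.16 (TMM, filterByExpr with the group, quasi-likelihood test, two-sided, Benjamini-Hochberg over 13311 genes). The fit was repeated with DESeq2 1.42.0, with limma 3.58.1 (FPKM on a log2 scale, pseudocount 1 or 0.1), with other scaling or filters, with a replicate block and with single libraries removed. DESeq2 with each library left out was added after the data were seen. The main edgeR fit, DESeq2 and limma with both pseudocounts were also tried on simulated data, and the other settings were not. The smallest p of an exact two-sided permutation test with 3 libraries per group is 0.1, so none was used. Log2 CPM for likeness had a prior count of 2.

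The members and lists were chosen with earlier results of these data known. Named were every member, in each list up to 3 genes per direction with the smallest edgeR p among those with an unadjusted p under 0.05, CDH1, EPCAM, VIM, CDH2 and FN1, and 2 most alike genes per tested member. Gene positions are from GENCODE 29 on GRCh38, and promoter letters from RefSeq on GRCh38.p14.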

Additional observations from a re-analysis of the deposited data

How the results depend on the processing

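Over the other settings, 93 of the members' fold changes kept their direction and their side of the threshold, 2 gained a call and 2 reversed. DESeq2 called 1 member, ZEB2 (log2 fold change 0.40), and 1302 genes in all, with 2 other EMT-driving factors, 2 stability and dimer partners, 3 upstream signals, 4 epithelial targets and 7 mesenchymal targets. The median of the other epithelium-keeping factors was 0.0789 with DESeq2 and 0.0629 without a filter, as more low genes were then included, and 17 genes were called without a filter. With library size only, the medians were -0.0312 (corepressors), -0.10 (stability and dimer partners), -0.14 (upstream signals) and 0.0648 (mesenchymal targets). With limma on log2(FPKM + 1) they were -0.0319 (corepressors), -0.0859 (stability and dimer partners) and 0.0629 (mesenchymal targets), with 179 genes called, 1 of them a stability and dimer partner and 1 a mesenchymal target. With log2(FPKM + 0.1) they were -0.0327 (corepressors), -0.0981 (stability and dimer partners), -0.14 (upstream signals), -0.69 (epithelial targets) and 0.0631 (mesenchymal targets), with 23 genes called. A pseudocount of 1 brought low genes such as CDH1 nearer to 0 (-0.21 against -1.14 in the main edgeR fit). With 0.1 CDH1 was at -0.86, whereas GRHL1 was further from 0 than in edgeR (-1.02 against -0.98).

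Leaving out 1 library gave 0 to 1 called members, 1 to 2 with an unadjusted p under 0.05, 1 to 3 without overlap and 0 to 844 called genes, with 844 without rhChemerin replicate 1 and 415 without rhChemerin replicate 3. Estimates ranged from -0.22 to 1.01 for SNAI2, 0.35 to 0.45 for ZEB2 and -0.0167 to 0.92 for ELF3, and the negative values came without rhChemerin replicate 3. Called genes numbered 0 to 1 (other EMT-driving factors), 0 to 2 (stability and dimer partners), 0 to 3 (upstream signals), 0 to 4 (epithelial targets) and 0 to 7 (mesenchymal targets). List medians ranged from -0.00397 to 0.49 (other EMT-driving factors), -0.0243 to 0.0480 (stability and dimer partners), -0.68 to -0.49 (epithelial targets) and 0.14 to 0.32 (mesenchymal targets). DESeq2 without rhChemerin replicate 1 called 1 member, ZEB2 (0.45), and without rhChemerin replicate 3 it called 2, ZEB2 (0.36) and TWIST1 (0.41), with SNAI2 at -0.21 and ELF3 at -0.0237. The causes were not tested.

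Replicate numbers are shared by the groups, but deviations of same-numbered libraries correlated at 0.241, 0.00147 and 0.247, so that the numbers were not taken as pairs. With a replicate block, 1 gene in all and 0 members were called, and ZEB2 was at 0.40. GRHL2 and OVOL1, at 5 counts or fewer per library, are limited by depth.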
